A study of Mus musculus with 6 samples.

Results

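Zbtb16-positive NKT-like cells were picked out of single-cell RNA-Seq (scRNA-Seq) of mouse liver non-parenchymal cells by a fixed set of UMI counts (UMIs are molecular tags, so that each counted molecule is counted once). A cell was a member when it held at least 1 Zbtb16 UMI, at least 2 UMIs of the CD3 genes Cd3d, Cd3e and Cd3g together, none of Cd8a, Cd8b1, Foxp3 or Trdc, and at most 1 of Cd79a. The members were thus chosen by their own UMI counts of these 9 genes. Of 27544 cells kept under the limits of fewer than 5000 genes and under 5% mitochondrial UMIs, 265 were members. The mice were male C57BL/6J animals with NASH (nonalcoholic steatohepatitis) on a high-fat diet in both groups, so no healthy or untreated liver enters any value. One group received the vehicle DMSO and the other ginkgetin, a biflavone of Ginkgo biloba leaves, at 10 mg/kg/day by the intragastric route, with 3 libraries in each group (replicates 1, 2 and 3). Whether a library holds 1 mouse or a pool is not given in the sources used here, and p-values measure the spread between these libraries.

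Invariant natural killer T (iNKT) cells are T lymphocytes whose semi-invariant αβ receptor recognises lipids presented by CD1d, and they are abundant in mouse liver. Their development and their rapid release of cytokines depend on PLZF, the transcription factor encoded by Zbtb16. In the textbook scheme NKT1 cells make IFN-γ under T-bet, NKT2 cells make IL-4 under GATA3 and PLZF, and NKT17 cells make IL-17, and CXCR6 retains many of them in the liver sinusoids. PLZF is also found in some γδ T cells, mucosal-associated invariant T (MAIT) cells and innate lymphoid precursors, so a Zbtb16 UMI alone does not identify an iNKT cell.

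The receptor gives the identity of an iNKT cell most directly, since its α chain joins the segment Trav11 (Vα14) to Traj18 (Jα18). The 2 segments are shown because their junction defines the invariant chain and because Trav11 is the segment the count tables could be searched for. Both lie on the plus strand of chromosome 14 in GRCm38 (GENCODE vM21), the Trav11 gene at chr14:53519303-53519859 with 2 exons. The capitals of Trav11 run from its last in-frame cysteine codon to the end of the segment, and the capitals of Traj18 run up to the phenylalanine codon of its joining motif, so that the capitals mark the stretches that meet in the junction.
Trav11, last 120 bases of exon 2, chr14:53519740-53519859: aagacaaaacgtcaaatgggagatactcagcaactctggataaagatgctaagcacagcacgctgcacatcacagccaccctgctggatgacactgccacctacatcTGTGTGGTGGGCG
Traj18, whole segment, chr14:54200777-54200842: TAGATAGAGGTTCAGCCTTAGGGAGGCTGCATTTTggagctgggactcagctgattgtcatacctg
A second gene, Trav11d at chr14:52824357-52824912, matched Trav11 over 342 bases with 0 mismatches, so reads of the 2 genes cannot be told apart, and a Trav11 count may hold both.

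The libraries held between 13128697 and 61796882 UMIs. Receptor genes, Trdc included, were listed only in the 2 replicate 3 libraries, whose gene symbols follow another set, so the Trdc term of the gate removed cells in those libraries alone. Pairs of libraries shared at most 85 cell barcodes, and 1 member barcode was also found in another library. In vehicle replicates 1, 2 and 3 there were 33, 19 and 12 members, and in ginkgetin replicates 1, 2 and 3 there were 25, 39 and 137. Ginkgetin replicate 3 stood apart from the others, with 992070 of the 1482267 member UMIs. Members were compared with 2866 other T cells that met the same gate with 0 Zbtb16 UMIs, and with 55 γδ T cells (CD3 with a Trdc UMI) and 476 NK cells (an Ncr1 UMI without CD3).

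Zbtb16 itself chose the cells and is a description. Its level in the summed members, in CPM (UMIs scaled to a total of 1000000 UMIs of the population), was 276, 311 and 205 in vehicle replicates 1 to 3 and 386, 291 and 201 in ginkgetin replicates 1 to 3. Most members rested on a single molecule, with 207 members at 1 Zbtb16 UMI and 58 at 2 or more. Of these 58, 45 came from ginkgetin replicate 3, and the other 5 libraries held 13 among 128 members. B cells, which should lack the gene, held a Zbtb16 UMI in 4 of 2565 cells (0.156%). Just outside the gate, 13 Zbtb16-positive cells held 1 CD3 UMI and none of Cxcr6 (0 CPM), whereas the 7 members with exactly 2 CD3 UMIs held Cxcr6 at 752 CPM. Of 231 kept Zbtb16-positive cells without a CD3 UMI, 220 were counted beside the gate, with Cxcr6 at 26.7 CPM. Other Zbtb16-positive cells with CD3 were set aside for another term. They held Cxcr6 at 517 CPM in 7 cells with 1 Cd8 UMI and 903 CPM in 5 with 2 or more. The level was 827 CPM in 7 with Trdc and 415 CPM in 3 with 2 or more Cd79a UMIs. All members stood at 710 CPM, and cells of the gate with 0 Zbtb16 UMIs at 375 CPM. A Cxcr6 level above that of all members was thus also seen in the cells with Trdc or with 2 or more Cd8 UMIs. The cells with 1 Cd8 UMI or with Cd79a lay closer to the gate cells without Zbtb16. These groups held only 3 to 7 cells.

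The label was then set beside markers that the gate did not use. Il4, Cxcr6 and Gata3 came with the label, which was chosen with earlier results of these data known. Their shares are thus a description and no independent check. Cxcr6, the chemokine receptor of liver-resident lymphocytes, had at least 1 UMI in 84.9% of members, and Il4 in 39.2%. When every cell was thinned to 1500 UMIs, so that cells were compared at equal depth, a Cxcr6 UMI was present in 59.2% of members, 35.8% of other T cells and 0.323% of B cells (53.9% of members and 35.0% of other T cells without ginkgetin replicate 3). The thinned Il4 share was 15.5% of members, 6.86% of other T cells and 0.161% of B cells (27 of 128 members and 177 of 2529 other T cells without ginkgetin replicate 3, whose own members gave 10.2%). B cells should lack both transcripts and gave the level against which the other shares were read, and the source of their UMIs was not tested. Without thinning, Il4 was read in 104 and Ifng in 94 of 265 members, and both in 40. In the 137 members of ginkgetin replicate 3 these counts were 56, 54 and 22. Whether both were read in the same cell more often than their separate shares would give was not tested. The joint count is thus a description and does not mark the members. Gata3 gave no such separation, with a thinned share of 18.9% in members and 16.6% in other T cells (14.1% and 16.3% without ginkgetin replicate 3). Of the markers fixed for the label, Cxcr6 and Il4 were thus read in a larger share of members than of other T cells, and Gata3 in a similar share.

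In the 2 libraries that list receptor genes, the constant gene of the α chain was read in most members. A Trac UMI was found in 11 of 12 members of vehicle replicate 3 and in 129 of 137 members of ginkgetin replicate 3, and in 261 of 315 other T cells, 10 of 29 γδ T cells and 4 of 105 NK cells of the latter library. A Trbc1 or Trbc2 UMI was found in 12 of 12 and 137 of 137 members, and this does not set them apart, since it was also found in 312 of 315 other T cells, 28 of 29 γδ T cells and 95 of 105 NK cells. Trav11, the segment printed above, gave 18 UMIs in 12 of the 137 ginkgetin members (8.76%, Wilson 95% interval 5.08 to 14.7%). Other T cells of that library held it in 13 of 315 cells (4.13%, 2.43 to 6.93%) and CD8 T cells in 1 of 238 (0.420%, 0.0742 to 2.34%). These intervals overlap between members and other T cells and do not overlap between members and CD8 T cells, and they cover counting error within 1 library only.

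Trav11 was found in 0 of 29 γδ T cells, which allows a share of up to 10.3%, and in 0 of 105 NK cells, which allows up to 2.86%. In vehicle replicate 3 it was found in 0 of 12 members, which allows up to 25.0%, and in 5 of 369 other T cells (1.36%, 0.580 to 3.13%). Few cells had any variable segment read, so the composition of these UMIs is given beside the share of cells. Of the 30 UMIs on any of the 21 Trav genes in the ginkgetin replicate 3 members, 18 were Trav11 (60.0%, 42.3 to 75.4%), against 17 of 39 in other T cells (43.6%, 29.3 to 59.0%) and 1 of 20 in CD8 T cells (5.0%, 0.888 to 23.6%). Molecules may come from the same cell, so these intervals are too narrow.

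**Figure D1:**
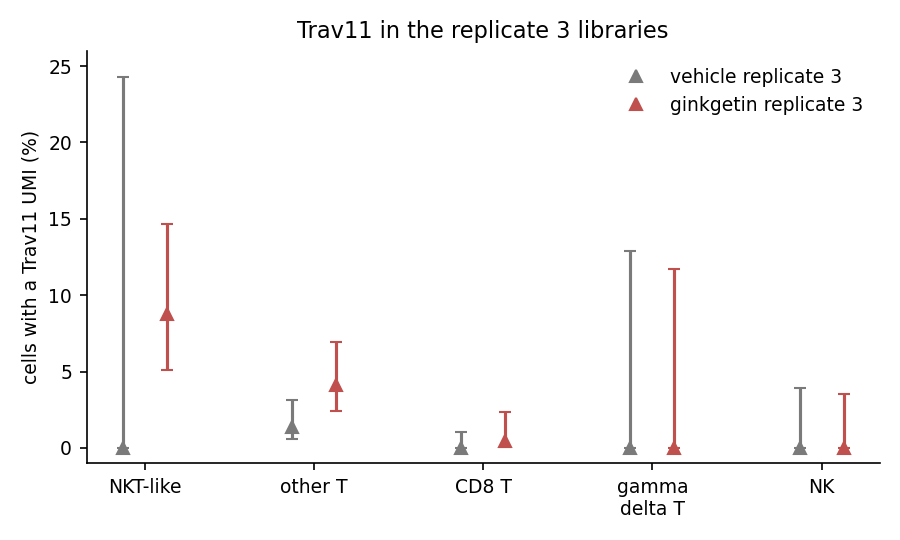
Share of cells with a Trav11 UMI in percent (vertical axis, triangles with Wilson 95% intervals) in members and 4 other cell populations of the 2 replicate 3 libraries. The 137 members of ginkgetin replicate 3 sat highest at 8.76%, and their interval overlapped that of other T cells, while the 12 members of vehicle replicate 3 gave a wide interval from 0 upwards.

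The β chains that pair with Vα14 were also present. Among 20 Trbv UMIs in the ginkgetin replicate 3 members, 17 came from the segments of the NKT list (Trbv1, Trbv13-1, Trbv13-2, Trbv13-3 and Trbv29), against 17 of 38 in other T cells and 8 of 14 in CD8 T cells of that library. By cells, these segments were read in 14 of 137 members (10.2%, Wilson 95% interval 6.19 to 16.4%), 15 of 315 other T cells (4.76%, 2.91 to 7.71%) and 8 of 238 CD8 T cells (3.36%, 1.71 to 6.49%), and the interval of the members overlapped both others. In the members, Trbv29 (Vβ7) gave 10 UMIs in 8 cells, Trbv1 (Vβ2) 5 UMIs in 4 cells and Trbv13-2 (Vβ8.2) 2 UMIs in 2 cells, and Trbv13-1 and Trbv13-3 were found in 0 of 137 cells, which allows up to 2.19%. In vehicle replicate 3 the members held 3 Trbv13-2 UMIs in 2 of 12 cells. γ chain constant genes were also read in the ginkgetin members, Tcrg-C1 in 35, Tcrg-C2 in 43 and Tcrg-C4 in 38 of 137 cells, and the γ segment Trgv2 in 24. Other T cells of that library held them in 50, 64, 69 and 30 of 315 cells. Each was thus read in a larger share of members (25.5, 31.4, 27.7 and 17.5%) than of other T cells (15.9, 20.3, 21.9 and 9.52%), without thinning. In the 29 γδ T cells of that library the shares were 62.1, 55.2, 69.0 and 34.5%. Whether some members are γδ T cells whose Trdc was not captured was not tested, and in the other 4 libraries the Trdc term could not act. Trav1, the α segment of MAIT cells, had 0 UMIs in members and also 0 in other T cells. Receptor genes were listed in the replicate 3 libraries alone, so this zero does not set members apart. The other gene of the MAIT list stood at 10.1 CPM in ginkgetin replicate 3 members and 5.69 CPM in other T cells there. In the remaining libraries it was at 0 CPM in members and above 0 in other T cells. Whether some members are MAIT cells was not tested.

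The first comparison asked whether ginkgetin altered how many such cells there were. As a share of all T cells that met the gate without its Zbtb16 term, members made up 5.62%, 5.52% and 3.15% in vehicle replicates 1 to 3 and 3.50%, 5.97% and 30.3% in ginkgetin replicates 1 to 3. Ginkgetin replicates 1 and 2 lay inside or beside the vehicle range, and ginkgetin replicate 3 lay far above every other library. The means were 4.76 ± 1.40% and 13.3 ± 14.8% (SD, n = 3 each), a difference of 8.50 points that did not exceed the spread between libraries (two-sided exact permutation test, p = 0.4, adjusted p = 0.4 over the 3 denominators tested). Over 3 against 3 libraries this test cannot go below 0.1.

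For this share the sign of the difference rested on 1 library. It was 27.2 points in replicate 3, -0.836 points over replicates 1 and 2, and -0.0280 points without ginkgetin replicate 3. Taken over all kept cells the shares were 0.469 ± 0.156% and 1.68 ± 1.80% (SD, n = 3 each, exact permutation p = 0.2, adjusted p = 0.4), and over CD3-positive cells 2.25 ± 0.774% and 7.85 ± 8.58% (n = 3 each, exact permutation p = 0.3, adjusted p = 0.4). These 2 differences stayed above 0 without ginkgetin replicate 3, at 0.170 and 0.673 points, and over replicates 1 and 2, at 0.0807 and 0.240 points. With 250 to 5000 UMIs per cell, the range in the study's methods, 28, 17 and 2 members were left in vehicle and 25, 35 and 17 in ginkgetin replicates 1 to 3. The differences were then 4.47 points of the gate, 3.14 of CD3-positive cells and 0.278 of kept cells (exact permutation p = 0.4, 0.3 and 0.5, n = 3 each), and over replicates 1 and 2 they were -0.483, 0.602 and -0.140 points. The members of both replicate 3 libraries were also the deepest, with medians of 6069 and 6748 UMIs against 2559 to 3379 in the other 4. When cells of the gate were thinned to 1500 UMIs, the Zbtb16-positive share was 3.24%, 2.62% and 0.529% in vehicle and 2.69%, 2.96% and 7.96% in ginkgetin replicates 1 to 3 (difference 2.41 points, exact permutation p = 0.4). Ginkgetin replicate 3 remained the highest of the 6 at equal depth, and the other 5 stayed at or under 3.24%.

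**Figure D2:**
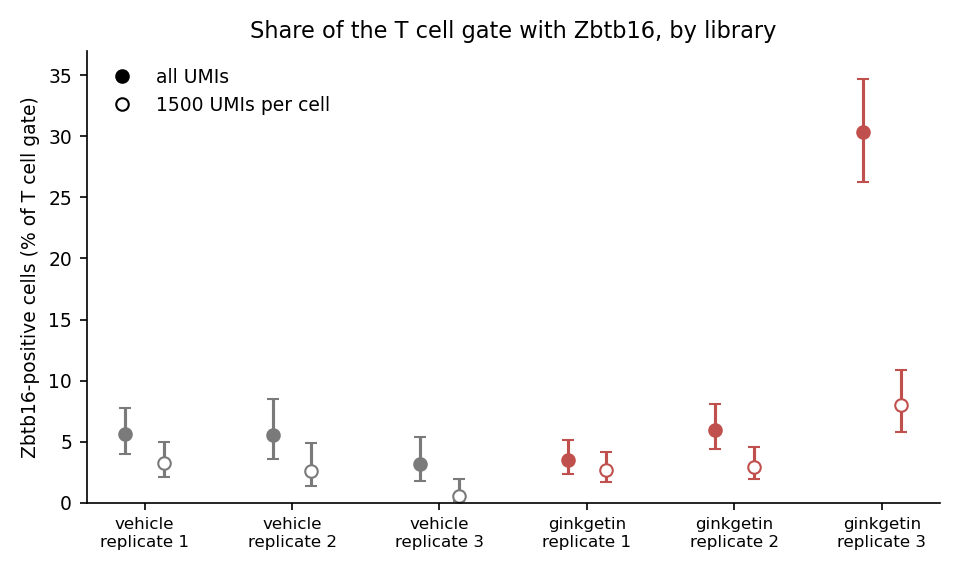
Members as a percent of the gate without its Zbtb16 term (vertical axis) in each of the 6 libraries, with all UMIs (filled points) and with cells thinned to 1500 UMIs (open points), and Wilson 95% intervals as bars. With all UMIs ginkgetin replicate 3 stands at 30.3% and the other 5 libraries lie between 3.15% and 5.97%, and thinned it stands at 7.96% and the others lie at or under 3.24%.

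Members were next compared with the other T cells of the same libraries, which asks what accompanies a Zbtb16 UMI within the same gate. Members had higher Il4 and several less known genes, and much lower levels of genes of naive and recirculating T cells (S1pr1, Klf2), of the granzyme Gzma and of the chemokine genes Ccl3, Ccl4 and Ccl5. With edgeR's quasi-likelihood test on counts summed per library, and the library as a block, 99 of 6993 genes tested passed an adjusted p under 0.05 and a fold over 2 (1.42% of genes), 15 higher (0.215%) and 84 lower (1.2%) in members. Members were deeper than other T cells in 5 of 6 libraries by median UMIs, and thinning every cell to 1500 UMIs before the gate, which left 82 members in the 4 libraries with enough of them, gave 12 calls, 0 higher and 12 lower. Without ginkgetin replicate 3, 54 of 4973 genes were called, 15 higher and 39 lower, and 40 of them were called in the same direction with all libraries. Of the genes named from this comparison, Ccl3 (-0.83), Il2 (-0.61), Fabp5 (-1.30), Nr4a2 (-1.31), Tcf7 (-0.86) and Zcchc10 (1.17) were not called without that library, with adjusted p from 0.0864 to 0.823, Il6ra, Lpl and Tnfrsf4 were then too low to be tested, and Ctla4 moved from -1.50 to -2.90 (adjusted p = 0.00251).

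Among effector cytokines, Il4 encodes the cytokine by which iNKT cells are often followed. Its level in members was 145, 184 and 109 CPM in vehicle and 148, 113 and 83.7 CPM in ginkgetin replicates 1 to 3, against 62.4, 52.1 and 19.9 CPM and 74.5, 42.4 and 49.1 CPM in other T cells. Il4 was higher in members in 6 of 6 libraries (log2 fold change 1.16, SE 0.19, edgeR adjusted p = 6.20e-06), and the ranges of the 2 populations did not overlap. The log2 difference was 0.38 when cells were thinned before the gate (adjusted p = 0.945) and 0.50 among cells with under 3 UMIs of other cell types (adjusted p = 1), so the call did not hold there. It was also lost without the library block (1.21, edgeR adjusted p = 0.327).

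Ifng, the cytokine of NKT1 cells, was not separated from other T cells, at 87.1, 637 and 341 CPM in vehicle and 104, 85.0 and 95.8 CPM in ginkgetin members (log2 difference 0.16, SE 0.19, adjusted p = 0.934). Vehicle replicate 2 held the highest level, and without it the log2 difference was -0.30. Il13 and Il17a had 0 UMIs in members. Of 15 secreted-factor genes tested out of 20 listed, 1 was higher (Il4) and 4 were lower (Il2, Ccl3, Ccl4 and Ccl5), with a median log2 difference of 0.16 beside -0.04 over all genes tested.

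Ccl5, a chemokine of memory and cytotoxic lymphocytes, stood at 3738, 3141 and 1078 CPM in vehicle and 3146, 4826 and 1596 CPM in ginkgetin members, against 6095, 8233 and 6029 CPM and 7086, 6300 and 3134 CPM in other T cells. Members were lower in all 6 libraries (log2 fold change -1.17, SE 0.09, adjusted p = 3.19e-17). Without vehicle replicate 3 the difference stayed significant but was just under 2-fold (-0.98). Ccl4 fell likewise (-2.33, SE 0.20, adjusted p = 2.32e-15), from 88.9 to 497 CPM in other T cells to 14.2 to 226 CPM in members.

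**Figure D3:**
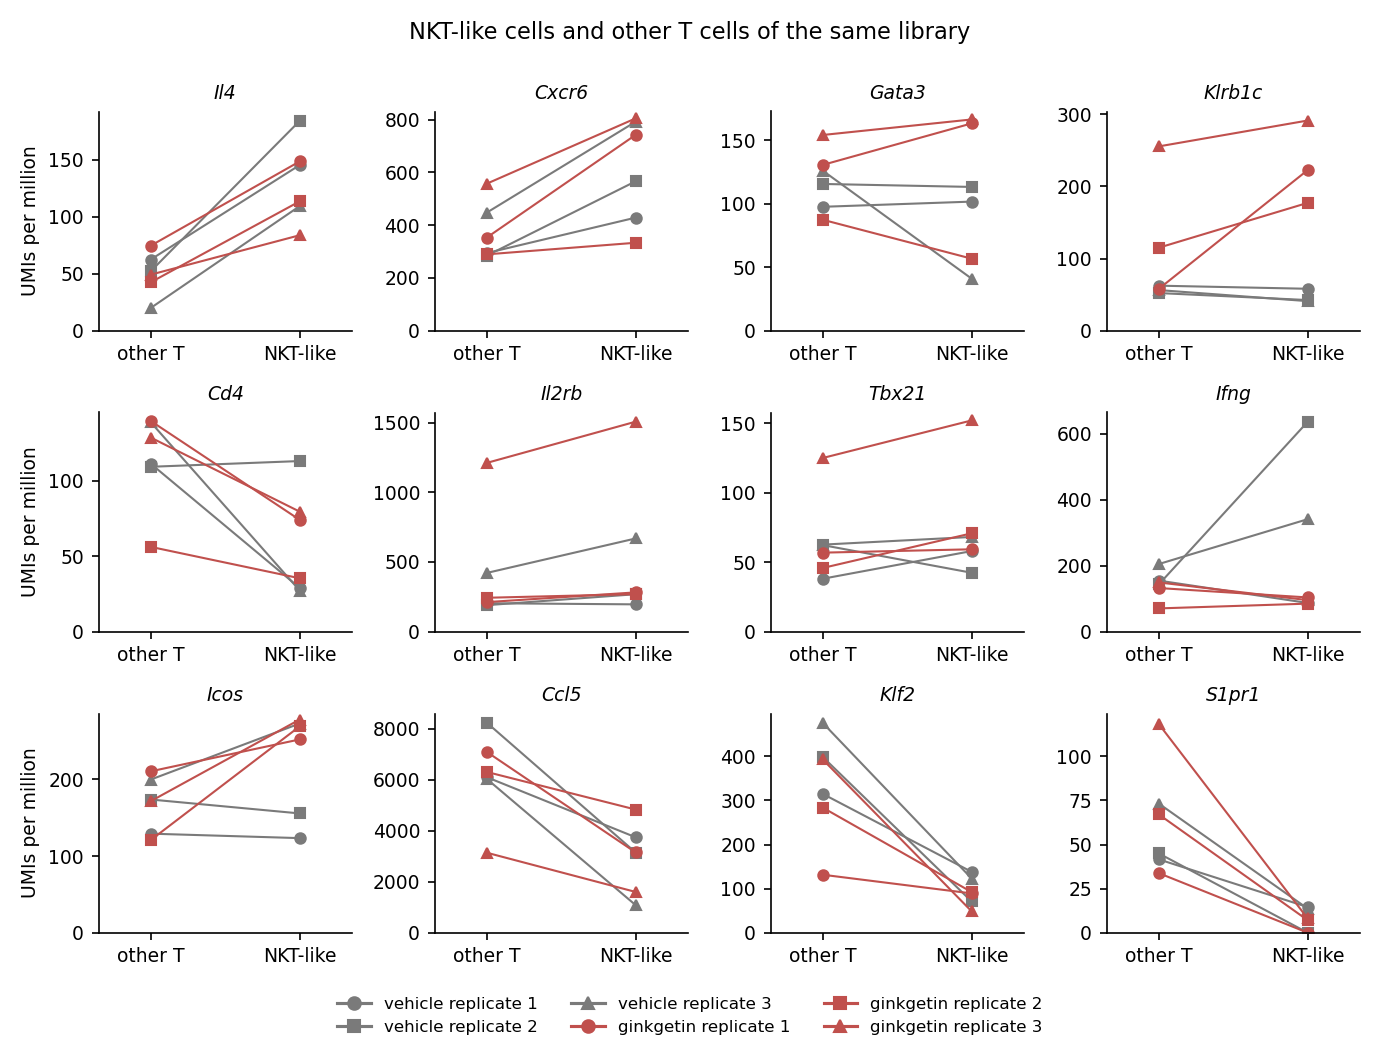
Levels in CPM (linear axes from 0) of 12 genes in other T cells and members, a line joining the 2 populations of each of the 6 libraries. Il4 and Cxcr6 were higher in members in 6 of 6 libraries, Gata3 in 3 of 6, and Ccl5, Klf2 and S1pr1 were lower in all 6.

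Among surface and homing markers, Cxcr6 was higher in members in 6 of 6 libraries, at 428, 566 and 792 CPM in vehicle and 742, 333 and 804 CPM in ginkgetin members against 284 to 557 CPM in other T cells. The log2 difference of 0.60 (SE 0.11, adjusted p = 5.78e-05) was significant and under the 2-fold limit. It did not pass the adjusted p with thinned cells (0.60, adjusted p = 0.195), among cells with under 3 UMIs of other cell types (0.50, adjusted p = 0.646) or without the library block (0.64, adjusted p = 0.642). Cd4, the coreceptor, was lower in members in 5 of 6 libraries (log2 difference -0.89, SE 0.20, adjusted p = 0.00169), also under 2-fold. Klrb1c, which encodes the NK1.1 antigen of this strain, did not separate the populations over all libraries (0.36, SE 0.17, adjusted p = 0.491). In vehicle replicates 1 to 3 it was lower in members than in other T cells (58.1, 42.4 and 41.0 against 62.4, 52.1 and 56.3 CPM). In ginkgetin replicates 1 to 3 it was higher in members (223, 177 and 291 against 57.9, 115 and 255 CPM).

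Il2rb, the receptor chain shared by IL-2 and IL-15 on which NKT1 cells depend, was 196, 269 and 669 CPM in vehicle and 282, 269 and 1507 CPM in ginkgetin members (log2 difference from other T cells 0.27, SE 0.12, adjusted p = 0.337). Both replicate 3 libraries were highest, and the same held in other T cells, at 421 and 1211 CPM. Icos, a costimulatory receptor of NKT2 cells, differed by 0.46 (SE 0.15, adjusted p = 0.0722), Tbx21, encoding T-bet, by 0.26 (SE 0.19, adjusted p = 0.795) and Gata3 by -0.11 (SE 0.17, adjusted p = 0.952). Itgae was too low to be tested.

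The gene lists of the NKT subsets gave few calls. Of 18 NKT1 genes tested, 0 were higher and 1 was lower (Ccl5), with a median log2 difference of 0.13. A pair of NKT1 genes were significantly higher and under 2-fold, Ly6c2 (0.73, adjusted p = 4.47e-05) and Id2 (0.47, adjusted p = 1.42e-05). Of 7 NKT2 genes tested out of 11, Il4 was higher and Il6ra, the IL-6 receptor chain, was lower (-4.05, adjusted p = 2.27e-07), with a median of 0.46. Il6ra was lower in 5 of 6 libraries and higher in members of vehicle replicate 2 (28.3 against 9.201 CPM).

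Of 7 NKT17 genes tested out of 15, Tmem176a was higher and none was lower, with a median of 0.66. Tmem176a, a membrane channel-like protein, was 348, 297 and 696 CPM in vehicle and 134, 191 and 113 CPM in ginkgetin members, above other T cells in 6 of 6 libraries (1.14, SE 0.14, adjusted p = 3.15e-09). The call did not hold with thinned cells (0.73, adjusted p = 0.729) or among cells with under 3 UMIs of other cell types (0.94, adjusted p = 0.0983). Tmem176b (0.66, adjusted p = 0.00133) and Ccr2 (0.68, adjusted p = 9.67e-04) were significantly higher and under 2-fold. The defining NKT17 genes Il17a and Il17f had no UMI in members. Of 10 liver residency genes tested out of 12, 0 passed in either direction with edgeR and 0 with DESeq2, Cxcr6 being the one past the adjusted p alone.

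Several genes of naive and recirculating T cells were lower in members. Of 7 such genes tested out of 9, 0 were higher and 4 were lower, with a median log2 difference of -1.44 beside -0.04 over all genes tested. Satb1, a chromatin organiser of T cells in the same list, was significantly higher and under 2-fold (0.50, adjusted p = 0.0187).

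S1pr1, the receptor by which lymphocytes leave tissue, was 14.5, 0 and 13.7 CPM in vehicle and 0, 7.09 and 8.06 CPM in ginkgetin members against 33.8 to 118 CPM in other T cells (-3.51, SE 0.34, adjusted p = 3.62e-13). Klf2, the transcription factor that drives S1pr1, was 138, 70.7 and 123 CPM and 89.0, 92.1 and 48.4 CPM against 131 to 476 CPM (-2.19, SE 0.18, adjusted p = 9.29e-17). Both genes were lower in members in 6 of 6 libraries, as was Igfbp4 (-1.99, SE 0.24, adjusted p = 1.24e-09), and Tcf7, encoding the naive T cell factor TCF-1, was the other one called (-1.44). Without ginkgetin replicate 3, 3 of 7 tested genes of the list were lower (Igfbp4, Klf2 and S1pr1), with a median of -0.86. S1pr1 then stood at -2.71 (edgeR adjusted p = 0.00207). With thinned cells 2 of 7 were lower (Klf2 and Tcf7), and without the library block 2 of 7 (Klf2 and S1pr1).

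Gzma, a serine protease of cytotoxic granules, was at 0 CPM in members of 5 libraries and at 75.6 CPM in ginkgetin replicate 3, against 79.7, 23.5, 151, 72.2, 74.0 and 814 CPM in other T cells of the same libraries in order (-3.56, SE 0.24, adjusted p = 2.53e-21). Ginkgetin replicate 3 was the highest library in both populations. Without it the log2 difference of Gzma was -9.23 (edgeR adjusted p = 6.60e-06), with members at 0 CPM in every library left. Of 8 cytotoxic genes tested out of 12, Gzma was lower and 0 were higher, with a median of 0.02. Tnfsf8, encoding CD30 ligand (-3.20, adjusted p = 7.52e-10), and Tnfrsf4, encoding OX40 (-2.52, adjusted p = 1.12e-05), were also lower in members in all 6 libraries.

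Of 16 activation genes tested out of 18, 2 immediate early genes were lower, Fos (-1.37, adjusted p = 5.05e-08) and Nr4a2 (-1.98). Of 6 checkpoint genes tested, Ctla4 was lower (-1.50). Of 12 lipid metabolism genes tested out of 15, Fabp5 and Lpl were lower. Of 15 developmental genes tested out of 17, 0 passed both limits, and Slamf6, a SLAM family receptor (-0.78, adjusted p = 0.017), and Id3, the partner that restrains E proteins (-0.83, adjusted p = 0.0452), were significantly lower and under 2-fold. Id2, named above among the NKT1 genes, is also in this list and was higher.

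The other 4 genes with large rises are less documented in T cells. Ramp1, the subunit that makes the receptor for the neuropeptide CGRP, was 247, 170 and 205 CPM in vehicle and 134, 128 and 70.6 CPM in ginkgetin members against 83.7, 78.7 and 90.8 CPM and 32.9, 73.0 and 42.4 CPM in other T cells (1.07, SE 0.17, adjusted p = 4.93e-06). It was higher in members in 6 of 6 libraries, and came to just under 2-fold without vehicle replicate 1 (0.95). With thinned cells its call did not hold (0.95, adjusted p = 0.607). Ly6g5b (1.21, adjusted p = 0.0157), 1810011H11Rik (1.09, adjusted p = 0.00234) and Zcchc10 (1.005, adjusted p = 0.0198) were also higher in 6 of 6 libraries and lost the call without vehicle replicate 3, at 0.90, 0.89 and 0.75. Ly6g5b and 1810011H11Rik also lost it without vehicle replicate 1 (1.06 and 0.99), Ly6g5b without vehicle replicate 2 (1.13), and Zcchc10 without ginkgetin replicate 2 or 3 (0.97 and 1.17). With thinned cells 1810011H11Rik (0.75, adjusted p = 0.874) and Zcchc10 (0.70, adjusted p = 0.899) did not pass, and Ly6g5b was too low to be tested.

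Several of the falls concern genes of other cell types. Fcer1g (-2.32, SE 0.18, adjusted p = 5.31e-18) and Tyrobp (-2.11, SE 0.20, adjusted p = 4.42e-14), signalling adaptors of myeloid and NK cells, and Lgals3 (-2.15, SE 0.24, adjusted p = 7.81e-11), a lectin of macrophages, were lower in members in 6 of 6 libraries. Of 7 macrophage markers tested out of 10, 3 were lower, and all 8 endothelial markers tested had values below 0, 1 of them called. The summed macrophage list was 65.5 to 532 CPM in members and 279 to 2148 CPM in other T cells, and the highest share of such UMIs in a single member was 0.444%. The part of these other cells' RNA in the lower calls was not tested beyond the limits on other-class UMIs, under which 21 calls (cells with under 3 such UMIs) and 56 calls (at most 0.2% of UMIs) were made.

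**Figure D4:**
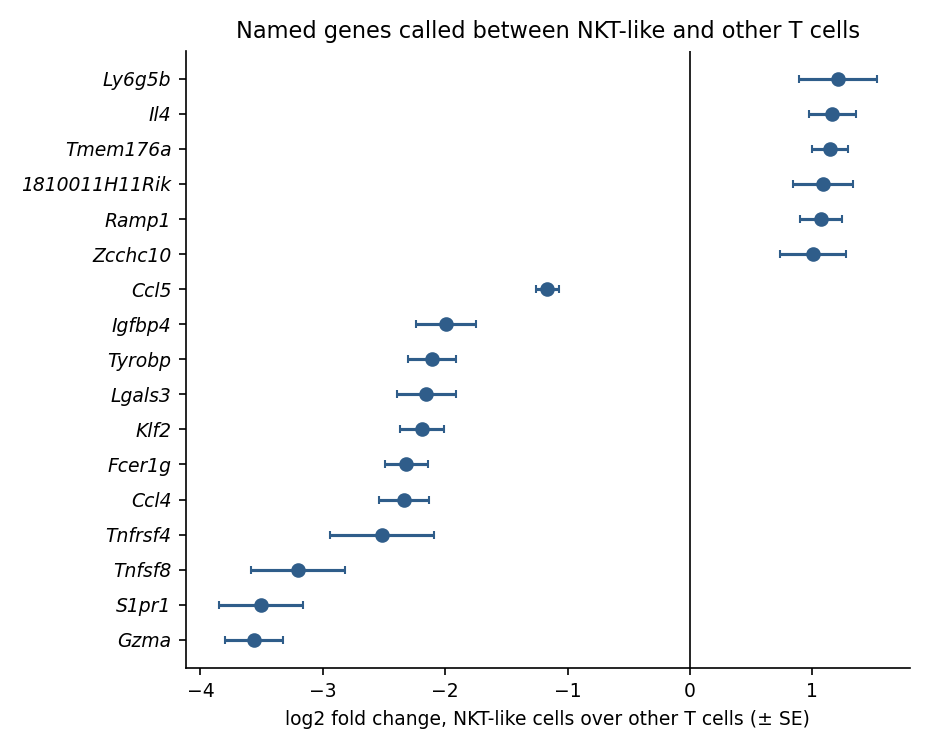
Log2 fold changes (members over other T cells, bars are standard errors) in 6 libraries with the library as a block, for Il4, Ccl5 and the called genes at 50 CPM or more that moved alike in every library (at most 10 each way). Among the genes drawn, falls reached -3.56 (Gzma) and rises 1.21 (Ly6g5b), and Il6ra (-4.05), which was not lower in every library, is not drawn.

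Members were also compared with γδ T cells and NK cells, other innate-like lymphocytes of the liver. γδ T cells could be gated only in the 2 replicate 3 libraries, so that comparison had 1 residual degree of freedom, and 6 of 2534 genes were called (0.237%), all lower in members. With edgeR 0 genes were higher and with DESeq2 also 0, while 146 genes had an unadjusted p under 0.05 in either direction. Sox4, a transcription factor of immature and IL-17-type γδ T cells, had 1 UMI in members of the 2 libraries and 68 in γδ T cells, a ratio of 215.6 (counting interval 37.41 to 8640).

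The other 5 lower genes were S1pr1 (-4.69), Vim, encoding the filament protein vimentin (-3.03), Tcf7 (-2.99), Emb (-2.50) and Ccl5 (-1.33), each with adjusted p = 0.032. Il4 was 109 and 83.7 CPM in members against 11.97 and 23.7 CPM in γδ T cells of vehicle and ginkgetin replicate 3, a log2 difference of 2.32 (SE 0.58) that did not pass (adjusted p = 0.554). The members were above γδ T cells in both libraries. Cxcr6 differed by 0.53 (SE 0.30, adjusted p = 0.95).

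Against NK cells, 128 of 2133 genes were called (6% of genes), 41 higher (1.92%) and 87 lower (4.08%) in members. Il4 had 0 UMIs in 476 NK cells and 150 in members, which made it at least 73.62-fold higher (floor of 3 UMIs over the NK cells of all libraries). Cd4 had 103 UMIs in members and 2 in NK cells, a ratio of 75.83 (counting interval 20.47 to 634.5), and was under the limit of counts for the edgeR test. Icos was higher in 6 of 6 libraries, at 123 to 278 CPM against 9.46 to 45.5 CPM (2.94, SE 0.21, adjusted p = 3.82e-10), and Cxcr6 likewise (1.30, SE 0.17, adjusted p = 2.75e-06). Among the other genes called, at 50 CPM or more and higher in every library, the largest rises were Gramd3 (4.40, SE 0.26, adjusted p = 1.41e-11), Tmem64 (3.26, SE 0.29) and the stem cell antigen gene Ly6a (2.99, SE 0.28), and Bcl11b, the factor that fixes T cell identity, rose by 2.79.

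The Ly49 receptor gene Klra4 had 0 UMIs in members, which made NK cells at least 115.0-fold higher, and Klra8 had 3, a ratio of 113.0 (38.43 to 549.6), although reads may be split among these near-identical family members. Gzma was 896 to 5280 CPM in NK cells (-6.72, SE 0.29, adjusted p = 3.17e-14), and Klrb1c was 443 to 723 CPM against 41.0 to 291 CPM (-1.91, SE 0.26, adjusted p = 9.34e-06), both lower in members in 6 of 6 libraries. Of 17 NKT1 genes tested, many of which NK cells also use, 8 were lower and 1 was higher (Ly6c2, 1.51), with a median log2 difference of -0.89 beside 0.03 over all genes tested. Of 4 NKT2 genes tested 3 were higher, with a median of 2.10, and of 8 cytotoxic genes 4 were lower.

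The last comparison asked what ginkgetin treatment altered within the members. The heat-inducible chaperone genes Hspa1a and Hspa1b, the cAMP-responsive repressor gene Crem and the actin-capping gene Capg were lower in ginkgetin members, and Klrb1c was higher. These were the 5 of 1269 genes called (0.394%), 1 higher (0.0788%) and 4 lower (0.315%), and 99 genes had an unadjusted p under 0.05. With the replicate number as a block, 21 genes were called, 7 higher and 14 lower, all 5 among them. The libraries of the 2 groups did not overlap, in either direction, for 191 of the 1269 genes (15.1%).

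Hspa1a, encoding the inducible HSP70, was 951, 806 and 669 CPM in vehicle replicates 1 to 3 and 59.4, 42.5 and 25.2 CPM in ginkgetin replicates 1 to 3. All vehicle libraries lay above all ginkgetin libraries (log2 fold change -4.38, SE 0.42, edgeR adjusted p = 6.35e-05), and the gene was called in 15 of 15 alternative fits. Hspa1b, its near-identical neighbour, was 261, 354 and 437 CPM in vehicle and 89.0, 35.4 and 56.4 CPM in ginkgetin members (-2.49, SE 0.40, adjusted p = 0.0151), again without overlap, and reads may be split between these 2 genes. Hspa1b was not called without vehicle replicate 1 or 2 or ginkgetin replicate 2 or 3, with log2 values from -2.68 to -2.26. It was also not called with 250 to 5000 UMIs per cell (-1.64, adjusted p = 0.548) or with at most 0.2% other-class UMIs (-2.34, adjusted p = 0.277).

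The death and stress list, which holds these chaperones, had 9 of 13 genes tested, with 0 higher and 2 lower (Hspa1a and Hspa1b) and a median log2 difference of -0.61 beside 0.05 over all genes tested. The cofactor Dnajb1 (-1.81, adjusted p = 0.145) and Hsp90aa1 (-1.13, adjusted p = 0.308) did not pass, and both passed with the replicate number as a block (-1.70, adjusted p = 0.0354, and -1.12, adjusted p = 0.0486). Summed over the 13 genes the list was 3426 to 3738 CPM in vehicle and 1630 to 2062 CPM in ginkgetin members, without overlap. In other T cells it was 3256 to 3552 CPM and 1228 to 1780 CPM, so the same separation was present there.

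Crem was 109, 127 and 164 CPM in vehicle and 0, 14.2 and 11.1 CPM in ginkgetin members (-3.45, SE 0.62, adjusted p = 0.0221). Capg was 152, 99.0 and 177 CPM in vehicle and 14.8, 28.3 and 19.2 CPM in ginkgetin members (-2.65, SE 0.52, adjusted p = 0.0415). In both genes the vehicle libraries lay above the ginkgetin libraries without overlap. Crem was not called without vehicle replicate 2 (-3.53, adjusted p = 0.293), vehicle replicate 3 (-3.37) or ginkgetin replicate 1 (-3.36), and was too low to be tested without any 1 of the others. Capg was not called when any of vehicle replicates 2 and 3 or the 3 ginkgetin libraries was left out, with log2 values from -2.86 to -2.39, and was too low to be tested without vehicle replicate 1. In replicates 1 and 2 alone neither was called (-3.29, adjusted p = 0.187 for Crem and -2.23, adjusted p = 0.206 for Capg), and Capg was not called with DESeq2 (-2.77, adjusted p = 0.264).

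Klrb1c was 58.1, 42.4 and 41.0 CPM in vehicle and 223, 177 and 291 CPM in ginkgetin members. Every ginkgetin library lay above every vehicle library (means 47.2 ± 9.48 and 230 ± 57.5 CPM, SD, n = 3 each, log2 fold change 2.39, SE 0.42, edgeR adjusted p = 0.0221). The share of members with a Klrb1c UMI, thinned to 1500 UMIs, was 9.09%, 10.53% and 0% (0 of 12 cells, which allows up to 25.0%) in vehicle and 28.0%, 23.1% and 36.5% in ginkgetin replicates 1 to 3, a difference of 22.7 points (exact permutation p = 0.1, the smallest these libraries allow, adjusted p = 0.8 over 8 genes). The edgeR call was lost without vehicle replicate 1 (2.61, adjusted p = 0.166), vehicle replicate 2, or any 1 ginkgetin library (2.13, adjusted p = 0.225 without replicate 3), with log2 values from 2.13 to 2.61. It was also lost with DESeq2 (2.28, adjusted p = 0.291), with 250 to 5000 UMIs per cell (2.21, adjusted p = 0.539) and in replicates 1 and 2 alone (2.05, adjusted p = 0.0605), so that 6 of 14 alternative fits made the call.

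**Figure D5:**
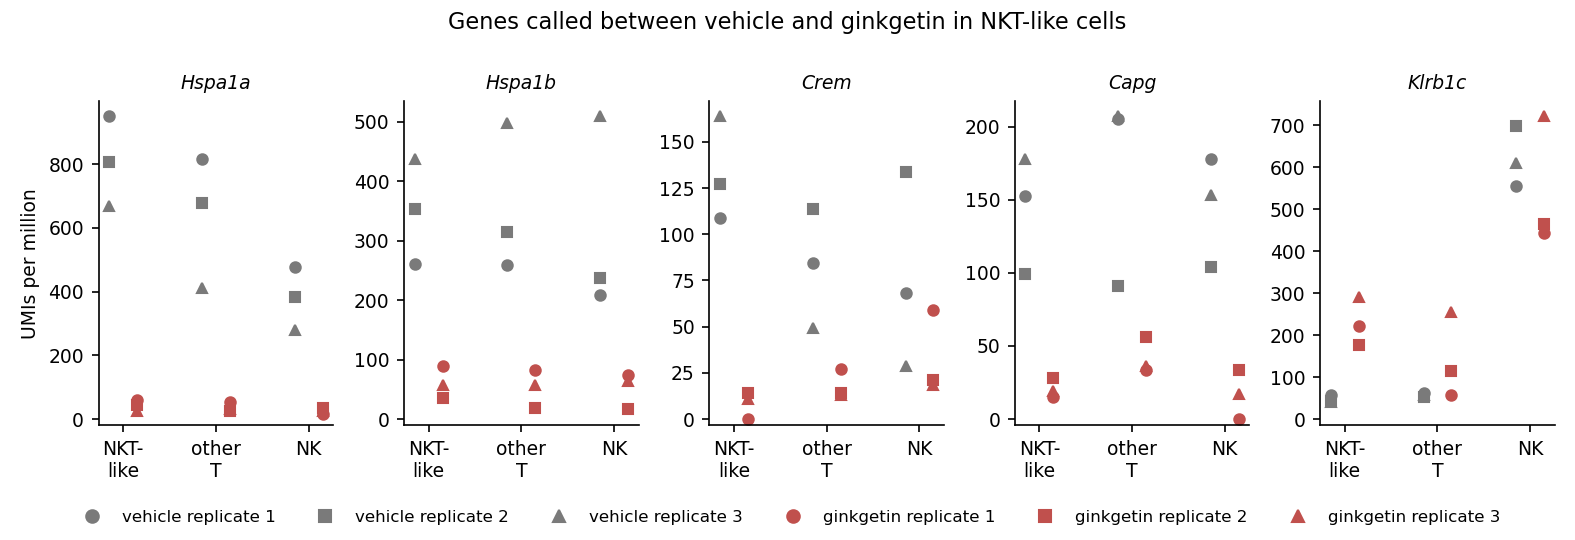
Levels in CPM (linear axes from 0) of the 5 genes called between ginkgetin and vehicle in members, with the same genes in other T cells and NK cells, 1 point per library (3 per group). Hspa1a separates the groups in each population, while Klrb1c separates them in members (41.0 to 58.1 against 177 to 291) and overlaps in other T cells.

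Whether these differences were particular to the members was tested as an interaction with other T cells. Hspa1a in other T cells was 815, 677 and 413 CPM in vehicle and 53.7, 25.7 and 30.5 CPM in ginkgetin libraries, and Hspa1a and Hspa1b separated the groups without overlap also in NK, CD8 T and B cells. Crem and Capg separated them in other T cells too. Klrb1c in other T cells was 62.4, 52.1 and 56.3 CPM in vehicle and 57.9, 115 and 255 CPM in ginkgetin libraries, so ginkgetin replicate 1 lay within the vehicle range there.

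The difference in group effect did not pass for any of the 5 genes, being 0.88 (SE 0.43) for Klrb1c, -0.23 (SE 0.34) for Hspa1a, 0.24 (SE 0.32) for Hspa1b, -0.93 (SE 0.57) for Crem and -0.54 (SE 0.44) for Capg, each with adjusted p = 0.998. No group effect on these genes was therefore shown to be particular to the members. Of 6993 genes, 1 passed both limits of the interaction test (0.0143%), the lysozyme gene Lyz2. Ccl5 had the lowest adjusted p (2.07e-05) at a difference under 2-fold (0.68, SE 0.11), its group effect being higher in members than in other T cells. It did not pass the adjusted p without vehicle replicate 3 (0.27, adjusted p = 0.999), ginkgetin replicate 2 (0.47, adjusted p = 0.352) or ginkgetin replicate 3 (0.69, adjusted p = 0.98), or with DESeq2 (0.68, adjusted p = 1), and the value without vehicle replicate 1 was 1.14 (adjusted p = 2.15e-13).

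The genes that define NKT function gave no call between the groups with edgeR. Il4 differed by -0.32 (SE 0.41, adjusted p = 0.857), Cxcr6 by 0.21 (SE 0.39, adjusted p = 0.911), Gata3 by 0.72 (SE 0.49, adjusted p = 0.679), Icos by 0.72 (SE 0.35, adjusted p = 0.586), Il2rb by 1.05 (SE 0.62, adjusted p = 0.660) and Ccl5 by 0.40 (SE 0.47, adjusted p = 0.839). With standard errors of 0.35 to 0.62 on the log2 scale, small changes were not detectable in these libraries. Cd4, Tbx21 and Itgae were too low in members to be tested between groups.

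Ifng was lower in ginkgetin members, 104, 85.0 and 95.8 CPM against 87.1, 637 and 341 CPM, and vehicle replicate 1 lay within the ginkgetin range. The log2 difference of -1.73 (SE 0.55) did not pass (adjusted p = 0.348), and it passed when replicate numbers were a block (adjusted p = 0.0354). Of 16 NKT1 genes tested, 1 was higher (Klrb1c), with a median of 0.20. Of 4 NKT2, 6 NKT17, 7 liver residency and 9 activation genes tested, 0 passed with edgeR, with medians of 0.20, -0.01, 0.21 and -0.43 beside 0.05 over all genes tested. Tmem176a of the NKT17 list was lower with the replicate number as a block (-1.57, adjusted p = 0.0354).

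RNA of other cell types also differed between the groups in members. The macrophage list was 421, 439 and 532 CPM in vehicle and 74.2, 241 and 65.5 CPM in ginkgetin members, without overlap, and 10 of its 10 genes had a UMI in members. The endothelial list ran the other way, 87.1 to 123 CPM in vehicle and 163 to 1070 CPM in ginkgetin members, highest in ginkgetin replicate 2, with 8 of 8 genes detected. Capg is also a gene of macrophages, and the part of these levels in the group differences was not tested. The NK list summed to 70.7 to 174 CPM in vehicle and 63.8 to 75.6 CPM in ginkgetin members, with 4 of its 6 genes detected and the defining markers Eomes and Klra4 at 0.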

How the data were processed

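Liver non-parenchymal cells were profiled by scRNA-Seq in 3 vehicle and 3 ginkgetin libraries. The sample descriptions and the study's methods name 10x Chromium, whereas the extraction field of the labels names kits for bulk RNA (RNeasy and SMARTER), and the files were treated as 10x UMI counts. The deposited values are UMI counts per gene and cell without normalisation, and the submitters' processing notes name GRCm38 and mm10. The aligner is not given in the sources used here. Counts were summed per library and population, and CPM is UMIs per 1000000 UMIs of that population. Of 19349 genes, the 16150 counted under both symbol sets were tested, 2253 being counted in replicate 3 only and 946 in replicates 1 and 2 only (1.58 to 1.77% of member UMIs). The members and gene lists were chosen with earlier results of these data known.

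edgeR 4.0.16 (R 4.3.3, TMM scaling, filterByExpr, quasi-likelihood test, Benjamini-Hochberg adjustment) called genes at adjusted p under 0.05 and fold over 2, with the library as a block between populations, which needed 10 cells in a library. Genes of the gates were not tested. DESeq2 1.42.0 was an alternative. Thinning, exact permutation tests and Wilson 95% intervals used numpy 2.4.6 and scipy 1.17.1, and intervals and floors cover counting error only. No doublet caller was run, and limits on UMIs of other cell types were alternatives instead. Deviations of same-numbered libraries from their group means correlated at 0.159, 0.256 and 0.580 over 1231 genes. Unlike numbers 1 and 2 correlated at 0.273 and 0.294, so replicates 1 and 2 were not shown to be pairs. The main group test was unpaired, and the replicate block was an alternative. Named genes were 14 fixed genes (Zbtb16, Il4, Cxcr6, Gata3, Klrb1c, Cd4, Il2rb, Tbx21, Ifng, Icos, Itgae, Ccl5, Trav11 and Trbv13-2) with called genes at 50 CPM or more that moved alike in every library (the 10 largest rises and falls against other T cells, 5 each way against γδ T and NK cells, and up to 5 each way of lowest p between groups without overlap) and up to 4 examples a list. Some genes of the lists are not reported here. Tested on simulated data, the group test recovered 56% of 100 genes changed by 1.5 log2 units and 99% of 100 changed by 3.0 (1273 genes). It also called 2 unchanged genes. The simulation gave every gene the same dispersion and let libraries differ only in size, so recovery in the real libraries was not measured.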

Additional observations from a re-analysis of the deposited data

Results flagged for a closer look

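Lyz2, the lysozyme gene of macrophages and other myeloid cells, was the one gene past both limits (adjusted p under 0.05 and over 2-fold) in an interaction test of whether the response to ginkgetin differed between members and other T cells (log2 difference of group effects -2.09, SE 0.43, edgeR adjusted p = 0.00609). It was 160, 170 and 95.6 CPM in vehicle and 29.7, 63.8 and 10.1 CPM in ginkgetin members, and 694, 151 and 143 CPM and 142, 186 and 249 CPM in other T cells. The groups were apart in members and overlapped in other T cells, where vehicle replicate 1 was highest. They were also apart in CD8 T cells (183, 133 and 95.2 against 36.4, 64.4 and 15.1 CPM) and in B cells (697 to 1004 against 40.4 to 239 CPM), so a lower Lyz2 level was not confined to members. Lyz2 is in the macrophage list, and macrophage RNA differed between the groups, so its part in this value was not tested. Without ginkgetin replicate 3 the value was -0.41 (adjusted p = 1), without vehicle replicate 2 it was -1.62 (adjusted p = 0.656), and with DESeq2 it was -1.98 (adjusted p = 1).

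The same test passed the adjusted p alone for a further pair of genes, both under 2-fold. Ccl5 differed by 0.68 (adjusted p = 2.07e-05), with 3738, 3141 and 1078 CPM in vehicle and 3146, 4826 and 1596 CPM in ginkgetin members against 6095, 8233 and 6029 CPM and 7086, 6300 and 3134 CPM in other T cells, the groups overlapping in both populations. The nuclear RNA Malat1 differed by 0.36 (adjusted p = 0.00725), and its groups overlapped in members (18224 to 23855 against 18903 to 27866 CPM) and in other T cells.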

How the results depend on the processing

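The group calls in members (5) became 29 with no filter on genes, 21 with the replicate block, 24 with a block for the symbol sets, 14 in replicates 1 and 2 alone, 3 with DESeq2, and 1 each with 250 to 5000 UMIs per cell and with other-class UMIs at most 0.2%. Leaving out 1 library gave 1 to 7 calls. The replicate block kept all 5 genes and added among others Hspa8, Dnajb1, Hsp90aa1, Ifng and Tmem176a. It changed no other call on the genes fixed for every comparison. The shares could not be called either way, since a sign-flip test on 3 pairs cannot go below 0.25 and the unpaired permutation test not below 0.1. Calls against other T cells (99) became 201 with no gene filter, 6 without the library block, 38 with DESeq2, 12 after thinning, 21 and 56 under the limits on other-class UMIs, 44 in replicates 1 and 2, and 54 to 109 when 1 library was left out, 54 without ginkgetin replicate 3. Against γδ T cells (6) they became 12 with DESeq2's size factors, 29 with no gene filter and 19 at most 0.2% other-class UMIs, and against NK cells (128) they became 570, 81 without the block, 224 with DESeq2, 29 thinned, 74 and 79. The interaction (1) gave 0 with DESeq2 and 0 to 3 with 1 library left out.

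The member share of the gate turned to -0.836 points in replicates 1 and 2, and ran from -0.0280 to 13.4 when 1 library was left out, while the shares of kept and of CD3-positive cells ran from 0.170 to 1.77 and from 0.673 to 8.51. Thinned detection shares changed sign for Il4 (0.711 at 1000 UMIs, 1.12 in replicates 1 and 2, -4.28 to 2.61 with 1 library left out), Cxcr6 (-10.9 to 0.660), Cd4 (6.25 unthinned, 4.53 at 1000 UMIs, -5.14 to 2.75) and Tbx21 (-1.08 in replicates 1 and 2, -2.99 to 3.75). With 1 library left out, the group difference of Cxcr6 ran from -0.03 to 0.54 and of Il2rb from -0.27 to 1.68, both lowest without ginkgetin replicate 3. Against other T cells, Gata3 was 0.09 thinned and 0.22 with under 3 other-class UMIs, Klrb1c -0.17 thinned, and Ifng -0.60 thinned, -0.84 with under 3, and -0.30 to 0.59 with 1 library left out (-0.25 to 0.96 against NK cells). In the interaction, Cxcr6 was -0.19 to 0.09 with 1 library left out, Il2rb -0.07 with DESeq2, and -0.18 and -0.12 with a library left out. The cause was not tested. For single genes, 754 alternative values kept direction and side, 85 lost the call, 5 gained it and 13 reversed. Fits with Zbtb16 at least 2 UMIs, and group fits under 3 other-class UMIs, were not run because too few libraries kept enough members, and γδ T cells allowed no left-out library. The alternatives at most 0.2% other-class UMIs and for the left-out libraries of the interaction were chosen after seeing the data.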
